A study of Mus musculus with 18 samples.

Results

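Matricellular proteins are secreted into the extracellular matrix, where they act on cells and on matrix assembly more than they bear load. In the heart many of them are low in healthy muscle and are known to be induced in activated fibroblasts and myofibroblasts after injury. The 10 genes described here encode periostin (Postn), thrombospondins (Thbs1, Thbs2, Thbs4), osteonectin (Sparc), tenascin-C (Tnc), osteopontin (Spp1), fibronectin (Fn1) and the CCN proteins CTGF and CYR61. The last pair, listed as Ctgf and Cyr61, carry the symbols Ccn2 and Ccn1 in current annotation. The genes were chosen by name, with no threshold on a measured value but with earlier results of these data known, from the 30072 genes of the deposited tables, and all 10 were among the 15054 genes tested.

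RNA came from the interventricular septum of adult CD-1 mice, an outbred stock of mixed genetic background, at least 8 weeks old and of both sexes, with no sex given for single mice. Each group held 6 mice. Control mice were anesthetized with isoflurane and not irradiated, and the other mice received a single dose of 25 Gy to the heart under the same anesthesia and were studied 2 weeks or 6 weeks post-IR. A single control group served both times, with no time of collection given for it. Age at collection may therefore differ between groups, and its part was not tested. The sample labels name gamma radiation and the septum, whereas the study's methods name X-rays, sham-treated controls and ventricular tissue. By these methods controls and irradiated mice alike had CT imaging under anesthesia, and controls received no treatment dose. Expression is given as CPM, the count of a gene relative to the library size of its mouse after TMM scaling (trimmed mean of M-values), and a gene was called when edgeR's quasi-likelihood test gave a Benjamini-Hochberg adjusted P under 0.05 over all genes tested.

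Estimated counts summed to between 11522979 and 15501002 per mouse. The floor of detection was taken as 3 counts, worth between 0.194 and 0.26 CPM before TMM scaling. The floor covers counting error only. The TMM factors of controls were 0.844 to 0.991 and those of 6 week mice 1.04 to 1.13, while the share of mitochondrially encoded genes had medians of 23.2%, 20.2% and 17.4% in the control, 2 week and 6 week mice. With library size alone as the scale, all genes together shifted to a median log2 fold change of 0.15 at 2 weeks and 0.24 at 6 weeks against controls. Cardiomyocyte markers summed to between 73613 and 108787 CPM across the mice. These are bulk samples, so fewer cells of a type and less RNA per cell cannot be told apart.

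One control library stood apart for these genes. In control 4, 139 genes were more than 2-fold above every other control, against 14 to 71 genes above the rest of their group in the other mice. Postn reached 306 CPM in control 4 and at most 56.7 CPM in the other controls, and Tnc reached 36.1 CPM against at most 5.27 CPM. Control 4 was also the highest control for Sparc, Fn1, Spp1, Thbs2 and Thbs4. Its fibroblast markers summed to 5638 CPM and its macrophage markers to 266 CPM, where the next controls had 3526 and 156 CPM. Atrial markers summed to 1583 CPM in control 4, with 811 CPM in the next control. The part of these differences in the results was not tested. Control 3 was the lowest control for Postn, Thbs1, Thbs2, Thbs4, Sparc and Fn1, and had 212 genes more than 2-fold below every other control, the highest such number in any mouse. Results are therefore given with all mice and without control 4. Since control 4 was singled out by its values for these genes, leaving it out raises most fold changes against controls by construction. It also narrows the spread of genes in which control 4 stood apart. Calls of these genes without control 4 are therefore not a like comparison with the share of all genes.

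Sequence upstream of the start site was available from RefSeq (GRCm38.p6) for 7 of the 10 genes, and the 250 bases before the start are shown for 4 of them. Postn and Tnc are shown because they had the highest Pearson's r between mice (0.92 with control 4 and 0.80 without it, where other pairs were higher), and Thbs4 and Ccn1 because their windows held a motif searched. Capitals mark matches to the TEAD motif CATTCC or the EGR motif GCGTGGG on either strand, and the 2 TEAD matches of Thbs4 overlap by 1 base.
Postn (chr3:54360857-54361106, plus strand): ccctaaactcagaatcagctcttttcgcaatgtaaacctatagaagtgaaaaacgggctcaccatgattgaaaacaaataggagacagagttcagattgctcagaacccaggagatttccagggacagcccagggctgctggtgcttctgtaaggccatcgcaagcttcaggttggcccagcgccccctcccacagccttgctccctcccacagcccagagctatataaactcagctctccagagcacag
Tnc (chr4:64047016-64047265, minus strand): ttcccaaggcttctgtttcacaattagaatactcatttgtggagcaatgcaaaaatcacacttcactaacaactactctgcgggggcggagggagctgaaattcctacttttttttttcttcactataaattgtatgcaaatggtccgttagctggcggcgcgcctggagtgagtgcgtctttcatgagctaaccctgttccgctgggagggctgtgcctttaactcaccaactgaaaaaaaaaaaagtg
Thbs4 (chr13:92794819-92795068, minus strand): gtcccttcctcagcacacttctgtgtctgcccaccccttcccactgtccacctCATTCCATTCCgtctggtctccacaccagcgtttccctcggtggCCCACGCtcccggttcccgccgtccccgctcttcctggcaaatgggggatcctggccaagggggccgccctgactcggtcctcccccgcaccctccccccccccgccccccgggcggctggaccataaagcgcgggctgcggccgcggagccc
Ccn1 (chr3:145649986-145650235, minus strand): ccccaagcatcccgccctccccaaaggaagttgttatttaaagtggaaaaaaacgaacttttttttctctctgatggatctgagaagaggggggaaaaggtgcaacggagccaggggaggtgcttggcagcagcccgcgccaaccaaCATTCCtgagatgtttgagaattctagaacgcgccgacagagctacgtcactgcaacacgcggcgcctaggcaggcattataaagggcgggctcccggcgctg
The TEAD motif was found in 12.6% of 32851 upstream windows of this length, the EGR motif in 4.3%, the AP-1 motif TGANTCA in 6.75% and the CArG box of serum response factor in 1.47%. Thbs4 held TEAD matches beginning 197 and 192 bases before its start and an EGR match beginning 153 bases before it. Ccn1 held 1 TEAD match, beginning 103 bases before its start. No motif searched matched the windows of Postn, Tnc, Thbs2, Sparc and Spp1. The Sparc window lies at a start 3103 bases from the 5' end of the gene in GENCODE M21, so it is not shown. A match is a string of letters and not evidence of binding.

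Levels between genes were compared per transcript length, as TPM, the transcript abundance that the authors deposited. In controls the order of the medians was Sparc (157 TPM), Ccn1 (44), Ccn2 (40.5), Fn1 (23.6), Postn (17.7), Thbs2 (9.36), Thbs4 (4.97), Thbs1 (2.46), Tnc (0.554) and Spp1 (0.191). The lowest control for Sparc, at 106 TPM, was above the highest for Ccn1, at 58.9 TPM. The ranges of all other neighbours in this order overlapped between mice. At 6 weeks post-IR the order was Sparc (467 TPM), Fn1 (97.6), Ccn2 (70.2), Postn (64.9), Ccn1 (57.4), Thbs1 (17.9), Thbs2 (9.34), Thbs4 (7.59), Tnc (4.22) and Spp1 (1.39). Sparc was again above the range of the next gene, with a lowest mouse of 371 TPM against a highest Fn1 of 155 TPM. The lowest Ccn1, at 44.8 TPM, was also above the highest Thbs1, at 33.6 TPM, and the other neighbours overlapped. At 2 weeks the medians ran from Sparc (258 TPM) through Ccn2 (58.8), Fn1 (46.9), Ccn1 (42.4), Postn (25.2), Thbs2 (11.1), Thbs4 (5.09), Thbs1 (4.29) and Tnc (1.79) to Spp1 (0.671). The 2 week ranges of Sparc and Ccn2, Ccn1 and Postn, Postn and Thbs2, Thbs2 and Thbs4, and Thbs1 and Tnc did not overlap. TPM is not scaled between mice for composition, so these values give the order within a group and not a change between groups.

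**Figure D1:**
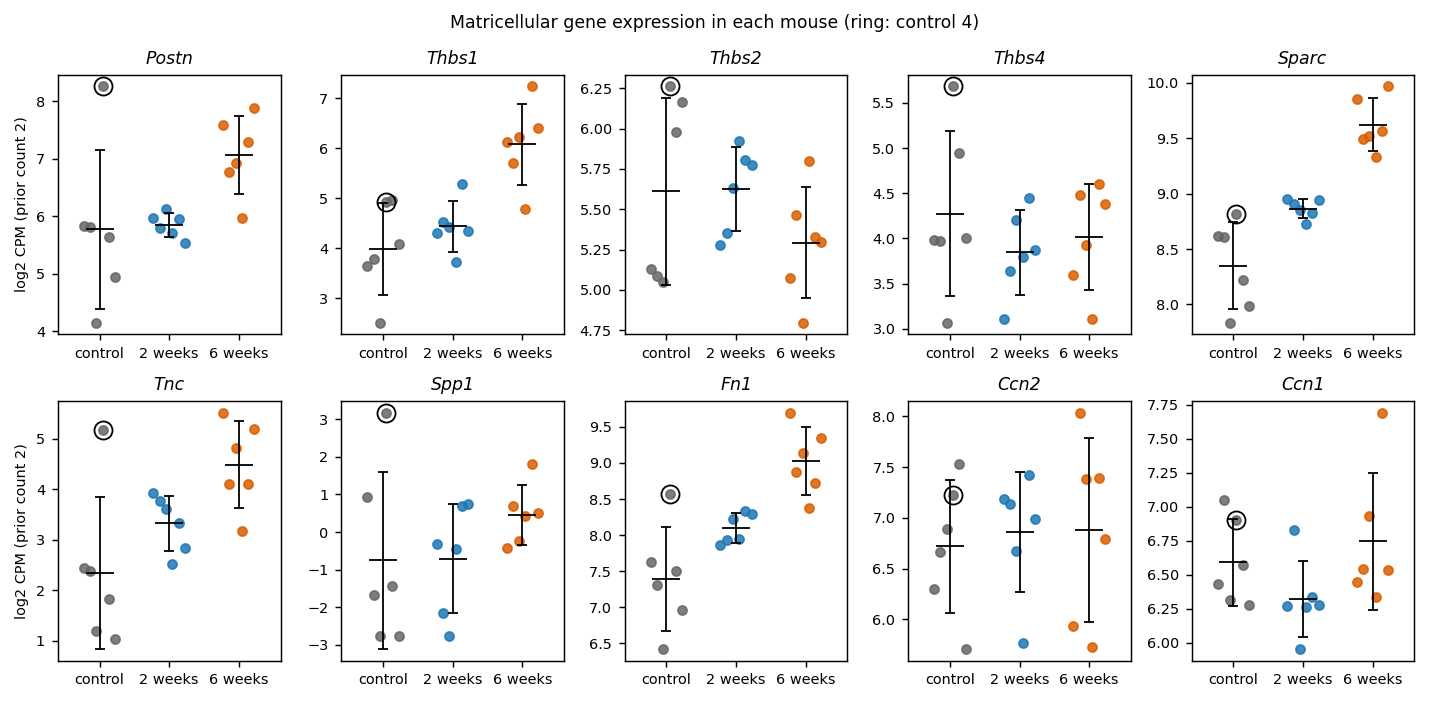
Expression of the 10 genes in each mouse, as log2 CPM with a prior count of 2, for 6 control mice, 6 mice at 2 weeks and 6 mice at 6 weeks post-IR. Points are mice, horizontal bars with error bars are the group mean ± SD, and the ring marks control 4. For Sparc all 6 mice at 6 weeks lie above all other mice, and for Postn and Tnc control 4 lies within or above the 6 week range.

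The first comparison asked which of these genes had changed by 2 weeks post-IR. With all mice, edgeR called 0 of the 10 genes, against 3.09% of all genes called higher and 1.93% called lower. The number with an unadjusted P under 0.05 was 1, and that gene was Sparc. DESeq2 and limma voom with sample quality weights each called 1 gene, again Sparc, and limma on log2(TPM + 1) called 2. Without control 4, 3 of the 10 genes were called higher (Sparc, Tnc and Fn1), against 3.75% of all genes. The median log2 fold change of the 10 genes was 0.02 with all mice and 0.48 without control 4.

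The second comparison addressed 6 weeks post-IR. Here 3 of the 10 genes rose (Thbs1, Sparc and Fn1) and 0 fell, where 13.5% of all genes were called higher and 11.5% lower. All 3 also had a log2 fold change above 1, as did 5.27% of all genes. Without control 4, 5 genes were called higher, with Postn and Tnc added, against 14.2% of all genes. The median log2 fold change of the 10 genes was 0.51 with all mice and 1.41 without control 4, while all genes together had a median of -0.02. Every mouse at 6 weeks was above every control for 1 gene, Sparc, which 5.8% of all genes also showed. Without control 4, Sparc, Fn1, Postn and Tnc showed it, as did 7.83% of all genes.

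The third comparison set 6 weeks against 2 weeks post-IR and used no control mouse for the fold change, although controls entered the shared estimate of spread. Thbs1, Sparc and Fn1 were higher at 6 weeks, 3 of 10 genes, where 3.31% of all genes were called higher and 2.01% lower. When control 4 was left out of the fit the estimates stayed the same to 2 decimals and the standard errors of Postn and Tnc narrowed. In that fit 5 of the 10 genes were called, all higher, against 625 higher and 369 lower of all 15054 genes. Control 4 was singled out by its values for these genes and not for all genes. The 2 numbers are therefore not a like comparison. The comparisons share mice, so their calls are not independent.

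**Figure D2:**
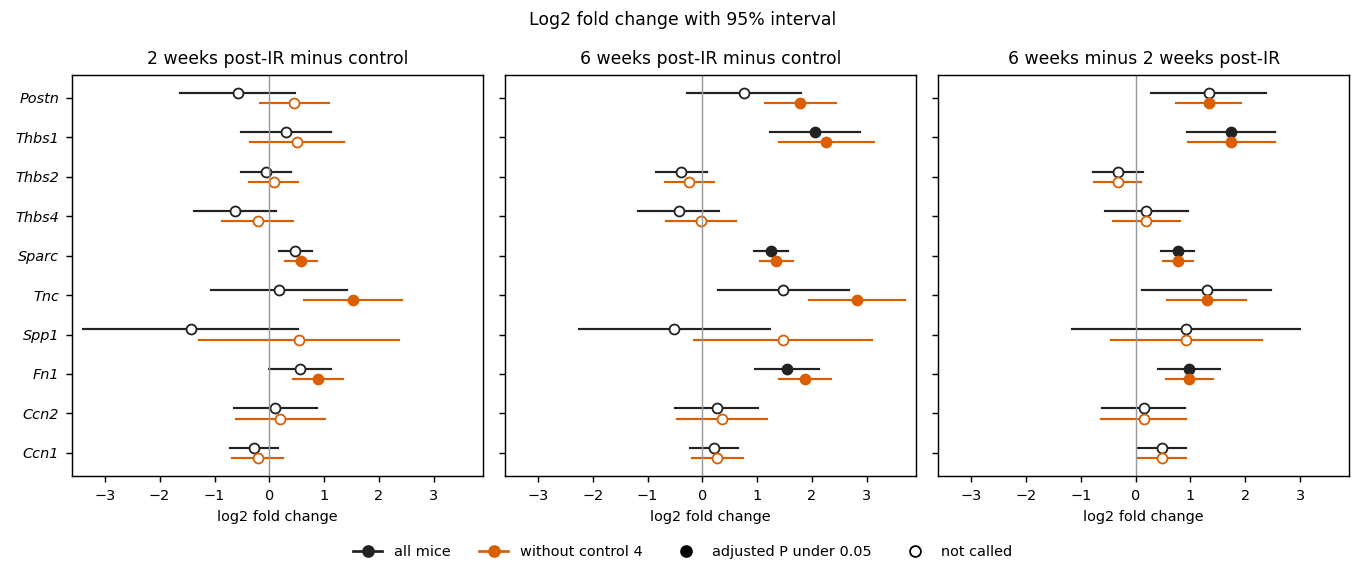
Log2 fold change with its 95% interval for each gene in the 3 comparisons, with all 18 mice (black) and without control 4 (orange). Filled points have an adjusted P under 0.05 over all genes. Thbs1, Sparc and Fn1 are filled in the comparisons of 6 weeks with control and of 6 weeks with 2 weeks, and Postn and Tnc in these comparisons only without control 4.

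Sparc encodes a collagen-binding glycoprotein that takes part in processing and assembly of fibrillar collagen. It lies at chr11:55394500-55423183 on the minus strand (GRCm38, ENSMUSG00000018593). Controls ranged from 228 to 451 CPM with a median of 343. The 2 week mice ranged from 422 to 495 CPM with a median of 470, and the 6 week mice from 642 to 1001 CPM with a median of 747. The 6 week group did not overlap with either other group, and 5 of 6 mice at 2 weeks were above every control, control 4 among them. The mean was 336 ± 88.5 CPM in controls (SD, n = 6) and 797 ± 136 CPM at 6 weeks (n = 6). The log2 fold change at 6 weeks was 1.25 (SE 0.145, adjusted P = 1.01e-05, edgeR), and 1.35 without control 4. From 2 weeks to 6 weeks Sparc rose by 0.77 on the log2 scale (SE 0.144, adjusted P = 0.00732, edgeR). At 2 weeks the log2 fold change was 0.48 with an adjusted P of 0.0614 (edgeR), and without control 4 it was 0.58 with an adjusted P of 0.0197.

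Fn1 encodes fibronectin, a glycoprotein that binds integrins and on which other matrix proteins assemble. The gene is at chr1:71585520-71653200 on the minus strand (ENSMUSG00000026193). Its level ranged from 85.4 to 379 CPM in controls with a median of 169. The range was 231 to 322 CPM (median 273) in the 2 week group and 333 to 831 CPM (median 517) in the 6 week group. Every mouse at 6 weeks was above every mouse at 2 weeks, and 5 of 6 were above every control. The next highest control after control 4 had 197 CPM, below every irradiated mouse at either time. The 6 week log2 fold change over control was 1.54 (SE 0.275, adjusted P = 0.000478, edgeR) with all mice and 1.87 without control 4. For 2 weeks the estimate was 0.56 (adjusted P = 0.25, edgeR), and without control 4 it reached 0.89 (adjusted P = 0.0246). The rise from 2 weeks to 6 weeks was 0.98 (SE 0.271, adjusted P = 0.0426, edgeR), a call that leaving out any 1 of 11 mice ended, with adjusted P up to 0.0982.

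Thbs1 encodes thrombospondin-1, which can activate latent TGF-beta and inhibits angiogenesis through the receptor CD36. It lies at chr2:118111876-118127133 on the plus strand (ENSMUSG00000040152). Its range was 5.55 to 31.1 CPM in controls with a median of 15.3. At 2 weeks it was 13.1 to 39.1 CPM with a median of 20.8, and at 6 weeks 27.4 to 151 CPM with a median of 72.1. Mouse 4 of the 6 week group was within the control range, and the other 5 mice were above every control. The log2 fold change at 6 weeks was 2.05 (SE 0.39, adjusted P = 0.000802, edgeR), the highest estimate among the 10 genes with all mice. Between 2 weeks and 6 weeks it was 1.75 (SE 0.383, adjusted P = 0.0167, edgeR). At 2 weeks against control the estimate was 0.30, with a 95% interval from -0.51 to 1.12 and no call.

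The other thrombospondins were not called in any comparison, with or without control 4. Thbs2, at chr17:14665500-14694235 on the minus strand (ENSMUSG00000023885), encodes a matrix thrombospondin that, like the product of Thbs1, inhibits angiogenesis. Its mean ± SD over the 6 mice of a group was 52.1 ± 20.5 CPM without irradiation, 49.9 ± 8.72 CPM after 2 weeks and 40 ± 9.55 CPM after 6 weeks. The controls fell into 3 mice between 32.9 and 34.8 CPM and 3 mice between 62.9 and 76.6 CPM, and both irradiated groups lay within or just below this span. At 6 weeks the log2 fold change was -0.38 with an interval from -0.84 to 0.07 (adjusted P = 0.221, edgeR). Thbs4, at chr13:92751590-92794818 on the minus strand (ENSMUSG00000021702), encodes a thrombospondin of heart, tendon and muscle. The control, 2 week and 6 week medians were 15.7, 14.1 and 17.9 CPM, and the ranges of the 3 groups overlapped. Its log2 fold change at 6 weeks was -0.43 with all mice and -0.02 without control 4, where the highest control was 30.6 CPM.

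For Postn and Tnc the edgeR call at 6 weeks with TMM scaling changed when control 4 was left out. Periostin, a marker of activated fibroblasts, is encoded at chr3:54361109-54391037 on the plus strand (ENSMUSG00000027750). Apart from control 4, controls had between 17.6 and 56.7 CPM, and mice at 6 weeks had between 62.2 and 236 CPM (median 139), so that the groups overlapped only through control 4. At 2 weeks the range was narrow, from 46 to 69.6 CPM, and 5 of 6 mice at 6 weeks were above it. The log2 fold change at 6 weeks was 0.76 with all mice (SE 0.494, adjusted P = 0.292, edgeR) and 1.79 without control 4 (SE 0.308, adjusted P = 0.000388). At 2 weeks its sign turned, from -0.58 with all mice to 0.45 without control 4, with no call either way. From 2 weeks to 6 weeks Postn was not called in the fit of all mice (adjusted P = 0.126, edgeR). With only these 2 groups fitted it was called (log2 fold change 1.33, adjusted P = 0.00998, edgeR). With all 18 mice, Postn at 6 weeks was called by limma voom with sample quality weights (adjusted P = 0.0161) and by limma on log2(TPM + 1) (adjusted P = 0.00723). DESeq2, and edgeR with relative log expression size factors in place of TMM, did not call it. On the log2(TPM + 1) scale 98.4% of all calls at 6 weeks were higher, against 54% with TMM scaling.

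Tenascin-C is an adhesion-modulating glycoprotein of developing and injured tissue, and Tnc lies at chr4:63959785-64047015 on the minus strand (ENSMUSG00000028364). Apart from control 4, controls ranged from 1.9 to 5.27 CPM, 2 week mice from 5.56 to 15 CPM (median 11) and 6 week mice from 8.82 to 45.8 CPM (median 22.6). Both irradiated groups were therefore above the other 5 controls without overlap. With all mice the log2 fold change at 6 weeks was 1.47 (SE 0.571, adjusted P = 0.0671, edgeR). Without control 4 it was 2.82 (SE 0.413, adjusted P = 9.45e-05), and for the 2 week mice it was 1.52 (SE 0.422, adjusted P = 0.0411). Leaving out mouse 4 of the 6 week group, with control 4 kept, also brought the 6 week change under the threshold (log2 fold change 1.65, adjusted P = 0.0403). From 2 weeks to 6 weeks Tnc was not called in the fit of all mice (adjusted P = 0.189, edgeR). With only these 2 groups fitted it was called (log2 fold change 1.29, adjusted P = 0.0444, edgeR). With all 18 mice Tnc at 6 weeks was called by limma voom with sample quality weights (adjusted P = 0.00414), by edgeR with library size only (adjusted P = 0.0258) and by limma on log2(TPM + 1) (adjusted P = 0.00343). It was not called by DESeq2 or by edgeR with relative log expression size factors. On the library size and log2(TPM + 1) scales 94.4% and 98.4% of all calls at 6 weeks were higher, against 54% with TMM scaling.

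Spp1, at chr5:104435118-104441050 on the plus strand (ENSMUSG00000029304), encodes osteopontin, a cytokine-like matrix protein of macrophages and bone that binds integrins and CD44. It was near the floor of detection. Estimated counts were 27, 2, 0, 128, 3 and 0 in control 1 to control 6. They ranged from 0 to 22 in the 2 week group and from 9 to 42 in the 6 week group. Above the floor were 2 of 6 controls, 4 of 6 mice at 2 weeks and 6 of 6 mice at 6 weeks. The log2 fold change at 6 weeks was -0.51 with all mice and 1.47 without control 4, with no call either way (adjusted P = 0.708 and 0.181, edgeR). Low counts and a wide spread between mice both stand beside this estimate, and their parts were not tested.

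The CCN genes encode secreted cysteine-rich regulators and are textbook targets of YAP, TEAD factors and serum response factor. Ccn2 (Ctgf), at chr10:24595442-24598683 on the plus strand (ENSMUSG00000019997), had medians of 110, 134 and 139 CPM in the control, 2 week and 6 week groups. Mice within a group spanned 3.16-fold to 4.95-fold, and the groups overlapped. Its log2 fold change at 6 weeks was 0.26, with an interval from -0.50 to 1.02. Ccn1 (Cyr61), at chr3:145646976-145649981 on the minus strand (ENSMUSG00000028195), had medians of 90.6, 77.3 and 92.9 CPM in the same order. One mouse at 6 weeks, mouse 5, had 207 CPM, and the next had 122 CPM. The log2 fold change was 0.21 at 6 weeks and 0.48 from 2 weeks to 6 weeks, with intervals from -0.23 to 0.64 and from 0.05 to 0.92, and neither was called (adjusted P = 0.515 and 0.185, edgeR).

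Within groups the genes did not all vary together. After subtraction of the group mean, Pearson's r of log2 CPM over 18 mice was positive for 41 of 45 pairs, with a median of 0.46, and at least 0.5 for 18 pairs. Without control 4 these became 37 pairs, a median of 0.24 and 11 pairs. The mice share library depth and tissue composition, so the correlations are descriptions. Postn, Tnc, Fn1 and Sparc formed the closest set, with r between 0.83 and 0.92 for its 6 pairs. Postn and Tnc had r = 0.92 and rho = 0.83, with r = 0.84 without the 2 mice farthest from the median and r = 0.80 without control 4. Sparc and Tnc had r = 0.83 and rho = 0.84, and r = 0.81 without control 4. Thbs1 followed Thbs4 most closely, with r = 0.81, rho = 0.70 and r = 0.79 without control 4, although only Thbs1 was called at 6 weeks and the difference between these genes was not tested. Thbs2 had r = -0.04 with Tnc, which became -0.65 without control 4. Ccn2 and Ccn1 had r = 0.44 and rho = 0.61. Ccn1 and Thbs4, the genes with a TEAD match in the windows shown above, had r = 0.37.

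**Figure D3:**
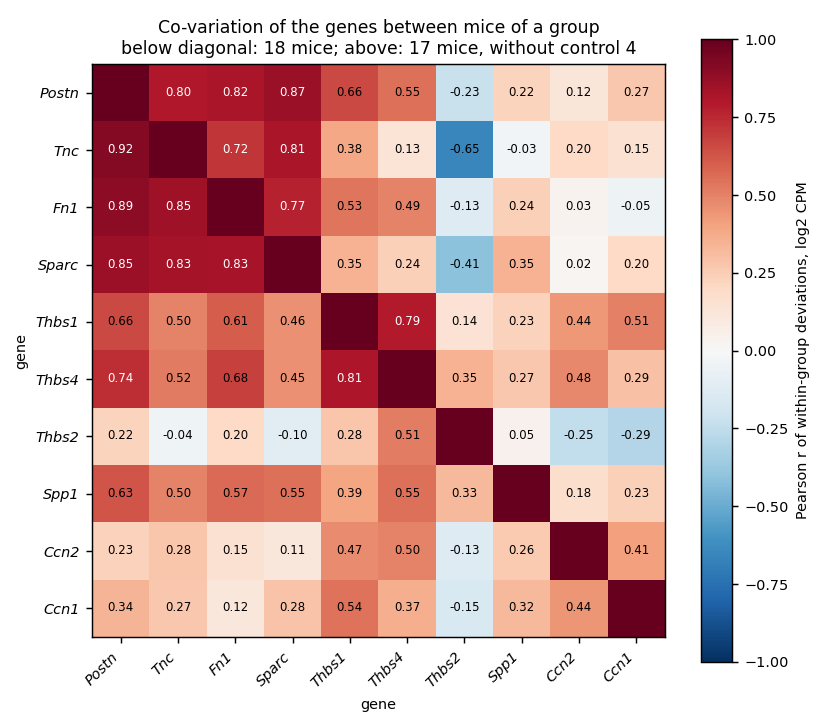
Pearson's r between the 10 genes for deviations of log2 CPM from the group mean. Cells below the diagonal use all 18 mice and cells above it 17 mice, without control 4. The block of Postn, Tnc, Fn1 and Sparc has r from 0.83 to 0.92 below the diagonal, and Thbs2 with Tnc goes from -0.04 to -0.65 across it.

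The genes most like each member, by the highest within-group r over 18 mice, were often fibrillar collagens. Postn was most like Col5a2 (r = 0.96) and Col1a2 (r = 0.95), Tnc most like Col1a1 (r = 0.96) and Col5a2 (r = 0.94), and Fn1 most like Col1a2 (r = 0.93) and Col1a1 (r = 0.90). Between groups the collagens had other values than Fn1. At 6 weeks Col1a2 had a log2 fold change of -0.02 and Col1a1 one of 0.10 (adjusted P = 0.973 and 0.85, edgeR), and without control 4 these were 0.39 and 0.63, both called. Sparc was most like Emp1 (r = 0.92) and Elmo1 (r = 0.90), Thbs1 most like Pde3b (r = 0.89) and Zyx, which encodes a focal adhesion protein (r = 0.86). Thbs4 was most like Ltbp2 (r = 0.94), which encodes a matrix protein related to latent TGF-beta binding proteins, and Pde3b (r = 0.92). Spp1 was most like Csf1r, the macrophage colony stimulating factor receptor (r = 0.88), and Aoah (r = 0.88), and Ccn1 most like the immediate early genes Egr1 (r = 0.91) and Egr3 (r = 0.90). For Thbs2 they were Acox3 (r = 0.92) and Dpep1 (r = 0.88), and for Ccn2 Spata1 (r = 0.84) and Tent5a (r = 0.81). Without control 4 the r values of these same pairs were between 0.77 and 0.94.

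Other genes of the same biology were followed through lists chosen by name, whose counts at 6 weeks stand against the 13.5% of all genes called higher and 11.5% called lower. Of 19 other matricellular genes tested, 2 rose and 3 fell, which is near the share of all genes, and without control 4 the counts were 3 and 1. Vtn, which encodes vitronectin, rose by 0.76 on the log2 scale (SE 0.154, adjusted P = 0.00137, edgeR), with every mouse above every control, and Sparcl1, the closest relative of Sparc, rose by 0.29. Ogn, Fbln1 and Tnxb had log2 fold changes of -0.52, -0.52 and -0.39. The calls of Sparcl1, Fbln1 and Tnxb were lost without control 4 (adjusted P = 0.0716, 0.0596 and 0.0981). With library size only as the scale none of the 3 falls was called.

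Among 14 genes of fibroblast activation, 2 rose at 6 weeks, about the share of all genes, and 0 fell. The list median was -0.13 with all mice and 0.21 without control 4, when 4 genes were called higher. Meox1, a transcription factor of activated cardiac fibroblasts, rose from 12.3 ± 5.25 to 36.4 ± 9.81 CPM (SD, n = 6 each), which is 1.55 on the log2 scale (SE 0.285, adjusted P = 0.000605, edgeR), and the groups did not overlap. Runx1 had a log2 fold change of 1.36 (adjusted P = 0.00115) and Cthrc1 was the gene in which control 4 exceeded the other controls the most. Without control 4, Lox, which crosslinks collagen, and Col8a1 were called too, at 1.24 and 0.83.

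Of 17 receptor genes of matricellular proteins, 6 rose and 1 fell at 6 weeks, with or without control 4, against 13.5% and 11.5% of all genes. Cd44, a receptor of osteopontin and hyaluronan, rose from 9.44 ± 2.56 to 24.2 ± 7.08 CPM (log2 fold change 1.35, SE 0.211, adjusted P = 0.000147, edgeR), and was already called at 2 weeks (0.80, adjusted P = 0.0364). Itgb3, the integrin beta chain shared by receptors for osteopontin, vitronectin and periostin, rose by 1.24, Itga4 by 1.31 and the fibronectin receptor chain Itga5 by 0.37. Itgb1 and Stab1 rose by 0.33 and 0.39. Cd36, the thrombospondin receptor also used for fatty acid uptake, fell by 0.37 at 6 weeks (adjusted P = 0.0113) and by 0.46 at 2 weeks (adjusted P = 0.0134). With library size only, 10 of the receptor genes were called higher and the fall of Cd36 was not called.

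In the TGF-beta pathway, which induces several of the matricellular genes, 7 of 14 genes rose at 6 weeks and 0 fell, with a list median of 0.43. Tgfb1 rose at 2 weeks by 0.44 and at 6 weeks by 0.73 (SE 0.0665, adjusted P = 7.39e-07, edgeR), with every irradiated mouse at either time above every control. Tgfbr1, Tgfbr2, Tgif1, Skil and Smad7 rose by between 0.44 and 0.90. All 7 were also called without control 4, when Ltbp1 was called lower.

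Among 20 genes of YAP, TEAD and serum response factor signaling other than the CCN genes, 5 rose at 6 weeks and 0 fell, against 13.5% and 11.5% of all genes. The number higher was 7 without control 4, 12 with library size only and 16 with log2(TPM + 1), scales on which most calls of all genes were higher. Mrtfa, a coactivator of serum response factor, rose by 0.50 (SE 0.0772, adjusted P = 0.000142, edgeR) and Ankrd1, a stretch-responsive target of YAP, by 0.61 (adjusted P = 0.0118). Crim1, Tead2 and Nuak2 rose by 0.36, 0.52 and 0.61. Of 12 immediate early genes, Myc rose by 1.08 and Junb by 0.63. Egr1, the gene most like Ccn1, had a log2 fold change of 0.19 (adjusted P = 0.778).

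Markers of the cells that a piece of septum can hold moved between the groups too. Of 10 macrophage markers 7 rose at 6 weeks, among them C1qa by 1.24 and Itgax by 3.92, and all 10 were detected in both groups. Their summed level was 101 to 266 CPM in controls. It was 179 to 229 CPM in the 2 week mice and 236 to 344 CPM in the 6 week mice. Of 10 fibroblast markers 0 rose and 2 fell, with Pdgfra at -0.88 (SE 0.129, adjusted P = 8.43e-05, edgeR) and Gsn at -0.84 (adjusted P = 0.00598). Without control 4, 3 of them rose (Col1a1, Col1a2 and Col3a1) and 2 fell. Fibroblast markers summed to 2711 to 5638 CPM in controls and 2484 to 3449 CPM at 6 weeks. Of 8 cardiomyocyte markers 6 fell, by 0.38 to 0.60, and with library size only 1 of the 8 was called lower and 1 had a positive estimate. Their sum was 81539 to 108787 CPM in controls and 73613 to 82034 CPM at 6 weeks.

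Endothelial markers were split, with Pecam1 and Cdh5 higher and Flt1, Tek and Tie1 lower, 5 of 8 genes in all. With library size only and with log2(TPM + 1) the counts were 5 higher and 2 lower. Of 8 smooth muscle and pericyte markers only Cspg4 was called, higher by 0.45. Among epicardial and mesothelial markers Wt1 rose by 0.67, 1 of 4 genes, and Hba-a1 was lower by 2.20, 1 of 4 erythroid genes. For atrial and for tendon and cartilage markers edgeR called 0 of 4 and 0 of 6 genes, with 0 and 1 at an unadjusted P under 0.05. DESeq2 and limma voom with sample quality weights called 0 as well. With library size only and with log2(TPM + 1), 0 of the 4 atrial markers were called. On each of these scales 2 of the 6 tendon and cartilage markers were called higher. Atrial markers summed to 73.1 to 696 CPM at 6 weeks and 233 to 1583 CPM in controls, and Bmp10, Tnmd and Mkx were below the filter. The part of these markers in the changes of the matricellular genes was not tested.

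**Figure D4:**
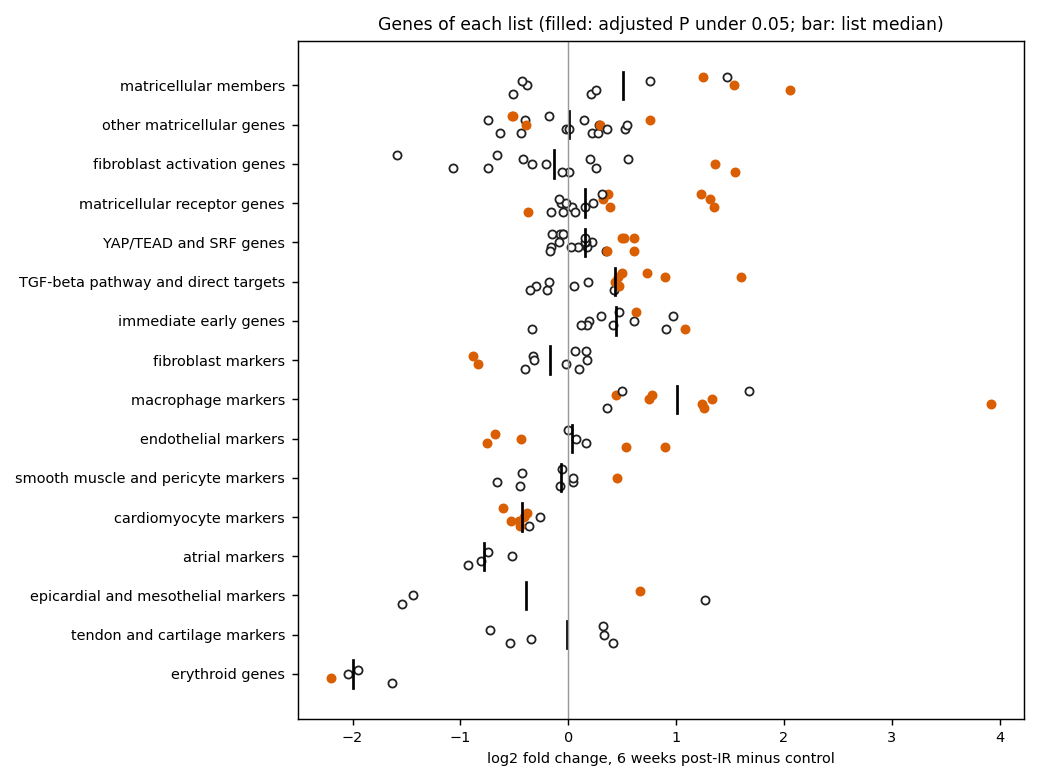
Log2 fold change at 6 weeks post-IR against control for each tested gene of the 10 matricellular members and the 15 other lists, in all 18 mice. Filled points have an adjusted P under 0.05 over all genes and black bars are list medians. The members spread from -0.51 to 2.05 around a median of 0.51. Filled points lie on both sides of 0 among the other matricellular genes, the receptors and the endothelial markers.

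Across the 15 lists, 13 genes were called at 2 weeks, 51 at 6 weeks and 17 between the times, where 5.02%, 25% and 5.33% of all genes were called in either direction. The list values are numbers of genes and not shares, and the tested number of each list is given above. Of 19 other matricellular genes and 14 fibroblast activation genes edgeR called 0 at 2 weeks, with 4 of each at an unadjusted P under 0.05. DESeq2 called 1 gene in each of these lists, and limma voom with sample quality weights called 1 and 0. Between 2 weeks and 6 weeks, Runx1 rose by 0.95, alongside Thbs1, Sparc and Fn1.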

How the data were processed

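RNA from 18 mice, 6 per group, was sequenced and each mouse was treated as one replicate. The authors aligned reads to GRCm38 with STAR, quantified transcripts with Salmon 1.0 (per the submitters' processing notes) and summed them to genes with tximport. The deposited estimated counts carry no normalization across mice. Their TPM values, also deposited, were scaled by the authors within each mouse and serve here for order between genes and for alternatives. Here the counts were rounded and fitted in R 4.3.3 with edgeR 4.0.16 (TMM, glmQLFit, quasi-likelihood F test, 1 fit of 3 groups, two-sided), after genes that reached 0.23 CPM in fewer than 6 mice were left out. Each SE was derived as the absolute log2 fold change over the square root of the F statistic of the test. The 95% intervals were built from this SE with a t quantile. Log2 CPM used a prior count of 2. The code was tested on simulated data.

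Members and lists were chosen with earlier results of these data known. The genes named were the members, up to 3 called genes with the smallest adjusted P and the largest change in each list and comparison, and the 2 genes most like each member. Further list genes (among them Cthrc1, Ltbp1, Col3a1, Itgb1, Stab1, Col8a1, Lox, Tead2, Nuak2, Tgfbr2, Skil, Smad7, Tnxb and Tie1) were named after their values were seen, as were the filtered genes Bmp10, Tnmd and Mkx. Coordinates are those of GENCODE M21 (GRCm38). Symbols were found for 29301 genes. Alternatives changed the model (DESeq2 1.42.0 or limma 3.58.1), scaling, filter, TPM, block, covariate, groups fitted, thresholds and single mice. A robust edgeR prior was added after seeing the data. One list gene that the rule names is not reported here.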

Additional observations from a re-analysis of the deposited data

Results flagged for a closer look

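Among the 10 genes in the 3 groups, 30 sets of 6 mice, Tnc in control 4 lay farther from its group than Dixon's test allows. It had 36.1 CPM, and the next control had 5.27 CPM, a gap of 0.661 of the group's range on the log2 CPM scale. Chance flags about 1 in 20 such sets.

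The change from control differed between 6 weeks and 2 weeks post-IR for 3 genes, tested as the contrast between these times in edgeR. The difference in log2 fold change was 1.75 for Thbs1 (adjusted P = 0.0167, higher at 6 weeks than every mouse at 2 weeks in 5 of 6 mice), 0.77 for Sparc (adjusted P = 0.00732, 6 of 6 mice) and 0.98 for Fn1 (adjusted P = 0.0426, 6 of 6 mice).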

How the results depend on the processing

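Of the fold changes of the 10 members in 3 comparisons, 349 of 387 values under other settings and 328 of 360 values with 1 mouse of a compared group left out kept their direction and their side of the threshold. Leaving out each mouse in turn gave 0 to 3 members called at 2 weeks, 3 to 5 at 6 weeks and 2 to 5 between the times, where the highest number came each time without control 4, and 8 to 23, 42 to 58 and 8 to 25 list genes called, against 13, 51 and 17 with all mice. For list genes the lowest numbers came without mouse 5 of the 2 week group in the first comparison (8) and without mouse 4 of the 2 week group or mouse 6 of the 6 week group in the third (8 each). Estimates that changed sign with 1 mouse left out ranged at 2 weeks from -0.79 to 0.45 for Postn, -0.16 to 0.083 for Thbs2, -0.025 to 1.52 for Tnc, -1.78 to 0.54 for Spp1 and -0.038 to 0.30 for Ccn2. At 6 weeks they ranged from -0.94 to 1.47 for Spp1, -0.031 to 0.45 for Ccn2 and -0.050 to 0.32 for Ccn1, and between the times from -0.14 to 0.32 for Ccn2.

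At 2 weeks, members called numbered 1 with DESeq2, with limma voom with sample quality weights and with library size only, and 2 with log2(TPM + 1) and with log2(TPM + 0.1). At 6 weeks they numbered 5 with limma voom and 6 with both TPM scales. Between the times they numbered 5 with only the 2 groups compared and 1 with a log2 fold change above 1 also required. List genes called at 2 weeks numbered 22 (DESeq2), 23 (library size only), 37 (TPM + 1), 39 (TPM + 0.1) and 1 (log2 fold change above 1 in size also required). At 6 weeks they numbered 84 and 85 on the TPM scales and 12 with that size required, and between the times 34 (DESeq2), 27 (limma voom), 27 (library size only) and 3 (size required).

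Signs turned at 2 weeks for Postn with limma voom (0.16), TPM + 1 (0.30) and TPM + 0.1 (0.33), for Spp1 with limma voom (0.39) and TPM + 0.1 (0.19), and for Thbs2 with limma voom (0.056), library size only (0.094), TPM + 1 (0.23), TPM + 0.1 (0.26), the replicate block (0.0021) and the Y-linked covariate (0.029). At 6 weeks they turned for Thbs2 (0.069 and 0.083) and Thbs4 (0.092 and 0.12) with TPM + 1 and TPM + 0.1, and for Spp1 with limma voom (1.78), TPM + 1 (0.44) and TPM + 0.1 (1.63). None of these was called. With library size only, 95.4%, 94.4% and 91.3% of all calls were higher in the 3 comparisons, against 61.6%, 54% and 62.2%, and on the TPM scales the share was at least 95.1%. The cause of these differences was not tested.

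No pairing of the mice by replicate number was seen. Same-numbered mice had r of -0.015 to 0.11, -0.083 to 0.10 and -0.059 to 0.078 in the 3 comparisons. In these comparisons 1, 2 and 2 of 6 numbers matched best with their own. Such values cannot exclude a pairing by design. With the replicate block 0, 3 and 2 members and 12, 51 and 13 list genes were called, and Fn1 between the times had an adjusted P of 0.0835. A robust prior, chosen after seeing the data, gave it 0.0541. Spp1 could not be tested under the literal reading of the filter. Spp1 had at most 128 counts in a mouse.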
